A study of Mus musculus with 20 samples.

Results

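The 100 transcripts described here had the highest ratio of footprint level on eIF3-associated 80S ribosomes to footprint level on all ribosomes in fed control cells. They were taken from the 1675 transcripts listed in every one of 20 libraries of mouse embryonic fibroblasts, out of 15354 transcripts listed in any. For each transcript, the geometric mean RPKM of the 2 fed Control eIF3-80S libraries was divided by that of the 2 fed Control Ribo-seq libraries, and the 100 highest ratios were kept. The members were thus chosen by their levels in these 4 libraries and by being listed in the other 16. RPKM is a read number scaled to the length of the transcript and to the total of the library. Members are named below by their rank in this ratio, from rank 1 (highest) to rank 100. The deposited files give Ensembl transcript identifiers without gene names, and 0 of them matched a symbol in the reference table used here, so functions, protein sequences and the identity of the genes are not described.

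All cells were of strain C57BL/6J and were kept in DMEM with fetal bovine serum. Control cells carry no further label. OGT_KO cells received 0.5 µM 4-OHT for 24 h and then fresh medium for 24 h to delete Ogt, and ThiametG cells received 0.1 µM Thiamet-G for 16 h. The labels do not say that Control or ThiametG cells received 4-OHT, and they do not name the Cre line or say whether the cells were 1 clone. Starvation was a 2 h change to DMEM with "DFBS", which the labels call amino acid starvation. Ribo-seq had 12 libraries, 2 for each of the 6 combinations of background and feeding. eIF3-80S-seq had 8 libraries, 2 each for fed and starved Control and 1 each for fed and starved OGT_KO and ThiametG cells. Nothing in the labels says whether replicates were separate cultures, so how far libraries of a group lay apart may be technical. The p-values below reflect that spread. In the fits with additive terms they also reflect how far the conditions departed from additivity.

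The initiation factor eIF3 is a complex of many subunits that binds the small ribosomal subunit, helps bring it to the messenger RNA and takes part in scanning and start codon selection. It can stay on the ribosome after the large subunit has joined, so that 80S ribosomes carrying eIF3 are taken to be early in translation. Ogt encodes the enzyme that attaches N-acetylglucosamine to intracellular proteins, Thiamet-G inhibits the enzyme that removes it, and the series title concerns this modification of eIF3a. Amino acid starvation activates the integrated stress response, which lowers general initiation while some messenger RNAs are translated more. The ratio used here therefore compares, for each transcript, its share of eIF3-carrying 80S footprints with its share of all footprints. A higher ratio can arise from more eIF3-80S footprints or from fewer footprints of other ribosomes, relative to the rest of each library.

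Read totals recovered from the steps of the RPKM values ran from 844403 to 5846130 in Ribo-seq and from 52148 to 359282 in eIF3-80S-seq. Every eIF3-80S library listed only transcripts with at least 5 reads. In Ribo-seq, 6 libraries held 14.1% to 21.5% of their transcripts under 5 reads and are called listed from 1 read below. The other 6 held at most 0.0850% under 5 reads, with a lowest listed number of 1 to 5 reads, and are called listed from 5 reads. Each Ribo-seq group held 1 library of each kind. The gel slice covered a wider range of footprint sizes in eIF3-80S-seq, so the assays differ in size selection as well as in the ribosomes they sampled, and these cannot be told apart. Both assays give shares of a library, so a change in the amount of all footprints is not visible.

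The values that chose the members are given as a description. The ratio ran from 1506 at rank 1 to 4.35 at rank 100, with a median of 6.34, against a median of 1.10 in the other 1575 transcripts. It was at least 32 in 10 members, at least 16 in 18 and at least 8 in 31, so that most members lay close to the lower end. The gap to the other transcripts was wider in Ribo-seq than in eIF3-80S-seq. The members' fed Control Ribo-seq level had a median of 10.8 RPKM (0.640 to 289), against 121 RPKM in the other transcripts, while their eIF3-80S level had a median of 95.3 RPKM (5.18 to 5517), against 133 RPKM. Both fed Control replicates taken alone put all 100 members above 1, 96 at 2-fold or more and 41 at 4-fold or more. In the eIF3-80S libraries of fed Control 21 members had under 20 reads in at least 1 library, and in Ribo-seq 2 members had under 10.

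The edge of the choice was smooth. Rank 96 had a ratio of 4.42, rank 97 of 4.38, rank 98 of 4.37, rank 99 of 4.36 and rank 100 of 4.35. The next 5 transcripts, just outside, had ratios of 4.35, 4.35, 4.33, 4.28 and 4.28. The lowest members are thus not set off from the transcripts that were left out.

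Among the first 10 members all but ranks 6 and 8 were low in Ribo-seq, and all but ranks 7 and 9 had a median eIF3-80S level of at least 322 RPKM in the 6 libraries outside fed Control, against 22.0 RPKM for rank 7 and 33.3 RPKM for rank 9. Rank 1, ENSMUST00000130864 with a coding length of 4920 nt, measured 26479 and 1149.6 RPKM in the fed Control eIF3-80S libraries and 23717 and 876 RPKM in the starved Control ones. Fed and starved OGT_KO cells had 7889 and 2725 RPKM, and fed and starved ThiametG cells had 922 and 6509 RPKM. In the 12 Ribo-seq libraries it lay between 2.30 and 16.3 RPKM. Its lowest eIF3-80S value was thus far above its highest Ribo-seq value, but replicate 1 of Control stood 28.4-fold (fed) and 29.9-fold (starved) above replicate 2 after scaling between libraries.

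**Figure D1:**
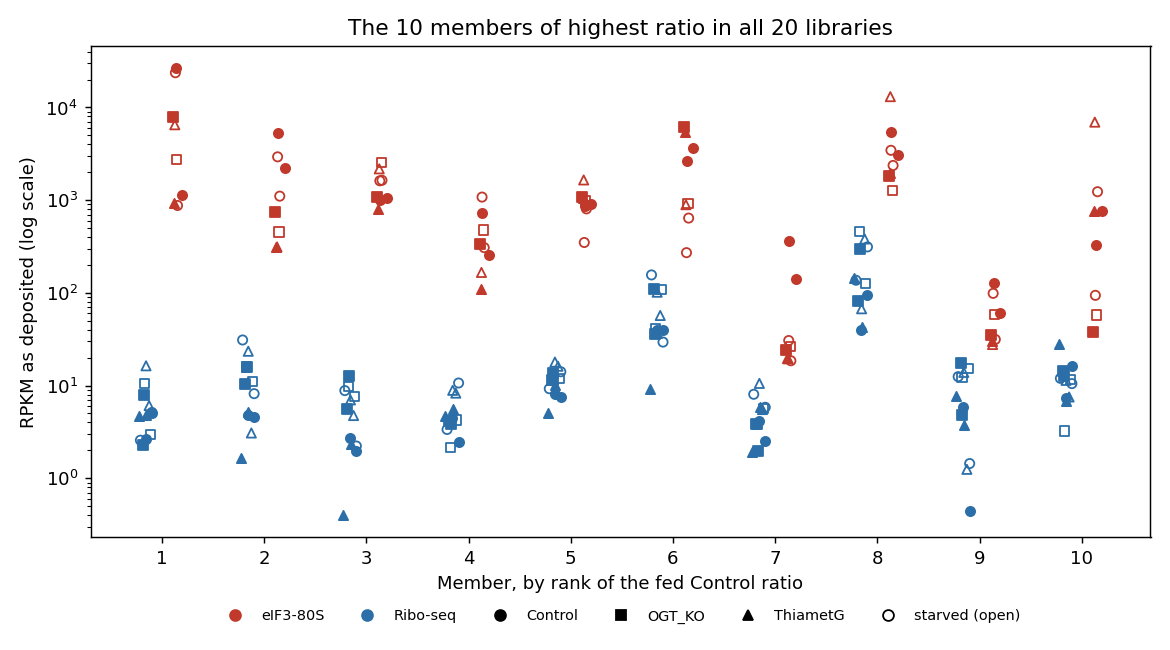
Deposited RPKM (log scale) of the 10 members of highest ratio, in order of rank, in each of the 8 eIF3-80S libraries (red) and 12 Ribo-seq libraries (blue); circles are Control, squares OGT_KO, triangles ThiametG, and open symbols starved cells. The red and blue points are apart at each rank outside fed Control, and rank 1 is spread from 876 to 26479 RPKM in eIF3-80S-seq. Outside fed Control the red points of ranks 7 and 9 reach at most 30.6 and 98.8 RPKM. At rank 10 the lowest red point outside fed Control, at 37.6 RPKM, is near the highest blue one, at 28.0 RPKM.

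Rank 3, ENSMUST00000027475 with a coding length of 3876 nt, was steadier. Its eIF3-80S levels were 996 and 1054 RPKM in fed Control, 1618 and 1639 RPKM in starved Control, 1083 and 2552 RPKM in fed and starved OGT_KO, and 804 and 2178 RPKM in fed and starved ThiametG cells. Its Ribo-seq levels ran from 0.400 to 12.6 RPKM over 12 libraries. Replicates of Control agreed closely here, and the starved library was the higher one in each background. Rank 5 was also even, with 349.5 to 1653 RPKM in the 6 eIF3-80S libraries outside fed Control and 5.02 to 17.9 RPKM in the 10 Ribo-seq libraries outside it.

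Rank 7 showed the opposite. It measured 364.5 and 142 RPKM in the fed Control eIF3-80S libraries that entered the choice, but only 18.5 to 30.6 RPKM in the other 6, against 1.93 to 10.6 RPKM in Ribo-seq. Rank 9 measured 128 and 61.1 RPKM in fed Control and 27.7 to 98.8 RPKM in the other eIF3-80S libraries, and its fed Control Ribo-seq levels of 5.83 and 0.447 RPKM rested on 72 and 5 reads. For both members the fed Control ratio was larger than the ratio in each of the 5 other conditions.

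The listing in every library also shaped which transcripts could be members. A transcript needed at least 5 reads in each eIF3-80S library, and in the smallest of them, starved Control replicate 1, 5 reads on a member stand for a median of 29.7 RPKM. For 68 of the 100 members this level was above their own median Ribo-seq level outside fed Control, and the same held for 19.7% of the other 1575 transcripts. With 5 reads in each of the 6 eIF3-80S libraries outside fed Control, 27 members and 0.952% of the others would already have a geometric mean above that of their Ribo-seq levels. A transcript of low Ribo-seq level could therefore enter the 1675 only with a high eIF3-80S level in these libraries, so the values outside fed Control are not independent of the choice and are given here as a description.

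The assays were compared over the 16 libraries outside fed Control, with condition and assay as additive terms (limma on log2(RPKM + 1), 10 residual degrees of freedom). Listing in these libraries entered the choice, so the calls and p-values of this fit describe the members and are not an independent test. Of the 100 members 73 were higher in eIF3-80S-seq, by 1.82-fold to 559-fold, and 0 were lower. The background was 2.13% of the 10631 transcripts tested and 11.3% of the 1675 listed in every library (190 transcripts), which included the members. The median log2 difference of the members was 1.86 (3.63-fold), and that of the 1675 was -0.04. In the libraries of the rule the members' median was 2.66, but on deposited RPKM, without scaling between libraries or a pseudocount. On deposited RPKM the rule's ratio had a median of 1.17 over the 1675, so the members' medians are not on a common scale. An estimate above 0 was found for 99 of the 100 members and for 812 of the 1675. The scaling used transcripts listed in all 16 libraries, so a median near 0 over the 1675 follows largely from it. After quantile normalization 100 and 1302 were above 0. Quantile normalization gave 94 members and a median of 2.86, against 27.5% and 0.57 over the 1675, and limma-voom on recovered reads gave 48 (4.48% of the 1675). Among all 10631, most of them not listed in every file and set to 0 where unlisted, the median was -1.58.

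The same fit was read for the 100 highest fed Control ratios among the 3839 transcripts listed in the 4 fed Control files, with no demand on the other 16 and with unlisted values as 0. Of these 49 were higher and 2 lower in eIF3-80S-seq, with a median log2 difference of 1.64 and 84 above 0. Among all 3839, 5.37% were higher and 1114 were above 0. Only 43 of the 100 chosen this way are among the members described here, of which 40 were higher. Of the 57 others 9 were higher and 2 lower, and 52 of the 100 were not listed in starved Control replicate 1. The count of 73 thus depends on the demand of a listing in every library.

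By rank, all 10 of ranks 1 to 10 were called, with a median difference of 35.8-fold, 19 of ranks 11 to 30 (7.90-fold) and 44 of ranks 31 to 100 (2.92-fold). Rank 1 had the largest log2 difference of 9.13 (SE 0.713, adjusted p = 9.32e-07 by limma), followed by rank 3 with 7.97 (SE 0.448, adjusted p = 2.68e-07 by limma). Rank 5 was 6.18 higher, rank 2 was 5.78 higher and rank 4 was 5.53 higher on the same scale. Rank 7 was called with only 1.94 (SE 0.421, limma adjusted p = 0.00181), where the rule had given 6.14 on deposited values. The 27 members that were not called ranged from -0.34 to 1.71.

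The 1 member below 0 was rank 38 (-0.34, SE 0.384, limma adjusted p = 0.463). Its eIF3-80S levels were 1069.9 and 502 RPKM in fed Control and 82.0 to 242 RPKM in the other 6 libraries, against 59.1 to 393 RPKM in the 10 Ribo-seq libraries outside fed Control. It was above 1 only in fed ThiametG cells among the 5 other conditions. Rank 13 was the first in order that was not called (1.03, SE 0.427, limma adjusted p = 0.059).

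The groups of libraries separated completely for 44 of the 100 members, in which all 6 eIF3-80S libraries outside fed Control lay above all 10 Ribo-seq libraries outside it. This held for 10 of ranks 1 to 10, 13 of ranks 11 to 30 and 21 of ranks 31 to 100. The background was 4.24% of the 1675 transcripts (71), and 27 of the 71 were not members. Of the 44, 21 were among the 27 members for which 5 reads in each eIF3-80S library would already exceed the Ribo-seq level, and 25 of these 27 were called. Members that were called had a median level of 13.3 RPKM in Ribo-seq and 84.2 RPKM in eIF3-80S-seq outside fed Control (scaled between libraries), and those not called had 63.6 and 117 RPKM.

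**Figure D2:**
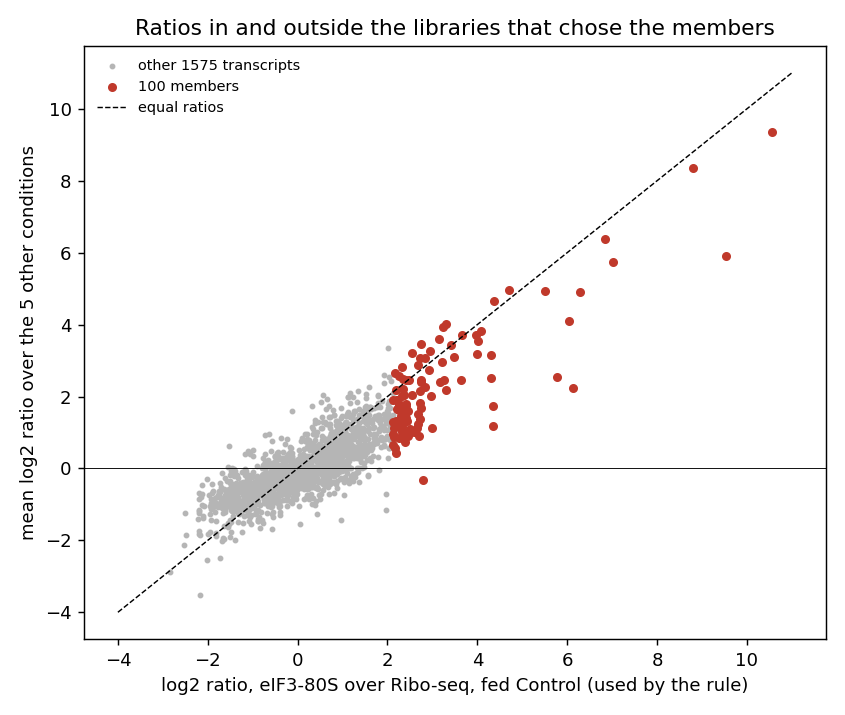
Log2 ratio of eIF3-80S-seq to Ribo-seq in fed Control (horizontal axis, used to choose the members) against the mean log2 ratio over the 5 other conditions (vertical axis), for the 100 members (red) and the other 1575 transcripts (grey). Of the members 82 lie below the dashed line of equal ratios, and 1 (rank 38) lies below 0. Horizontal ratios are of deposited RPKM and vertical ones are scaled between libraries, so the count below the line depends on the scaling.

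Over all 1675 transcripts the fed Control ratio and the mean ratio of the 5 other conditions had a Pearson r of 0.85 and a Spearman rho of 0.82, across transcripts that share libraries and depth. Among the 100 members alone, which cover a narrower range of fed Control ratios, the values were 0.83 and 0.67. These are descriptions over transcripts, which are not independent replicates.

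By condition, the ratios rest on 1 or 2 eIF3-80S libraries each, all of which had to list the members. In starved Control cells the members had a median ratio of 3.20, with 92 of 100 above 1, against 0.967 in the other 1575 transcripts. Fed OGT_KO cells had 3.32 (97 above 1) and starved OGT_KO cells 2.81 (90 above 1). Fed ThiametG cells had 5.35 (99 above 1) and starved ThiametG cells 5.63 (97 above 1). The median of the other transcripts stayed between 0.908 and 0.999 in these 4 conditions. A ratio of at least 4 was reached by 40, 44, 40, 67 and 59 members in these 5 conditions in the order given. The corresponding shares of the other transcripts were 1.97%, 1.59%, 2.54%, 4.89% and 4.51%.

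No single condition kept the list whole. Of the 100 transcripts with the highest ratio in each condition, 48 were members in starved Control, 52 in fed OGT_KO, 45 in starved OGT_KO, 57 in fed ThiametG and 55 in starved ThiametG. A ratio above 1 in all 5 conditions was found for 82 members (18.2% of the other transcripts), and a ratio of at least 4 in all 5 for 19 members and 0 of the 1575 others. Of the 19, 7 were among ranks 1 to 10, 5 among ranks 11 to 30 and 7 among ranks 31 to 100. At the other end 12 members, all among ranks 31 to 100, reached 4-fold in none of the 5 conditions.

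The Ribo-seq level of the members moved with the way their libraries were listed. Outside fed Control, 81 of 100 members were higher in the 5 libraries listed from 5 reads than in the 5 listed from 1 read. Their median difference was 1.94-fold, while the other transcripts had a median of 1.01-fold, with 807 of 1575 higher. Rank 23 was an extreme in the opposite direction, with 22.6 and 523 RPKM in the 2 fed Control libraries and 55.4 and 2422 RPKM in fed OGT_KO cells. Accordingly the median member ratio of a condition was lower against the library listed from 5 reads. It was 5.31 against the one listed from 1 read and 2.20 against the other in starved Control, 4.47 and 2.60 in fed OGT_KO, 3.55 and 1.97 in starved OGT_KO, 6.32 and 4.18 in fed ThiametG, and 8.36 and 3.60 in starved ThiametG cells. All 10 medians were above those of the other transcripts, which the scaling keeps near 1 and which lay between 0.840 and 1.03. With this listing as a block within Ribo-seq, limma called 80 members higher in place of 73, where the background was 14.0% of the 1675.

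Replicates of one group differed more for members than for other transcripts. In eIF3-80S-seq, the 2 starved Control libraries differed by a median of 1.61-fold over the members and 1.38-fold over the other transcripts. The difference was over 2-fold for 37 members and 17.6% of the other transcripts. In Ribo-seq outside fed Control the median difference of members ran from 1.78-fold in starved OGT_KO to 2.45-fold in starved Control cells, against 1.48-fold to 1.64-fold for the others. Between 16 and 31 members differed by over 4-fold between 2 Ribo-seq replicates of a group, against 5.14% to 8.44% of the other transcripts. Each Ribo-seq pair was 1 library of each listing, so replicate and listing cannot be told apart in these differences. Few reads stood behind these levels in some libraries, and the median member had 38.5 reads in starved ThiametG replicate 1. In the 2 starved Control libraries, with the largest median difference, it had 730 and 81.5 reads.

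The members took a far larger part of eIF3-80S reads than of Ribo-seq reads. Outside fed Control they held 8.48% to 20.1% of the reads of the 6 eIF3-80S libraries and 0.866% to 3.11% of the 10 Ribo-seq libraries, so the assays did not overlap. The eIF3-80S libraries differed most in the first members. Rank 1 alone took 11.7% of starved Control replicate 1 (95% Wilson interval 11.4% to 11.9%, counting error only) and 0.431% of replicate 2 (0.397% to 0.468%). In fed Control, which chose it, the shares were 13.0% and 0.566%. Ranks 11 to 100 were even, with 4.88% to 7.21% of reads in the 6 libraries outside fed Control.

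**Figure D3:**
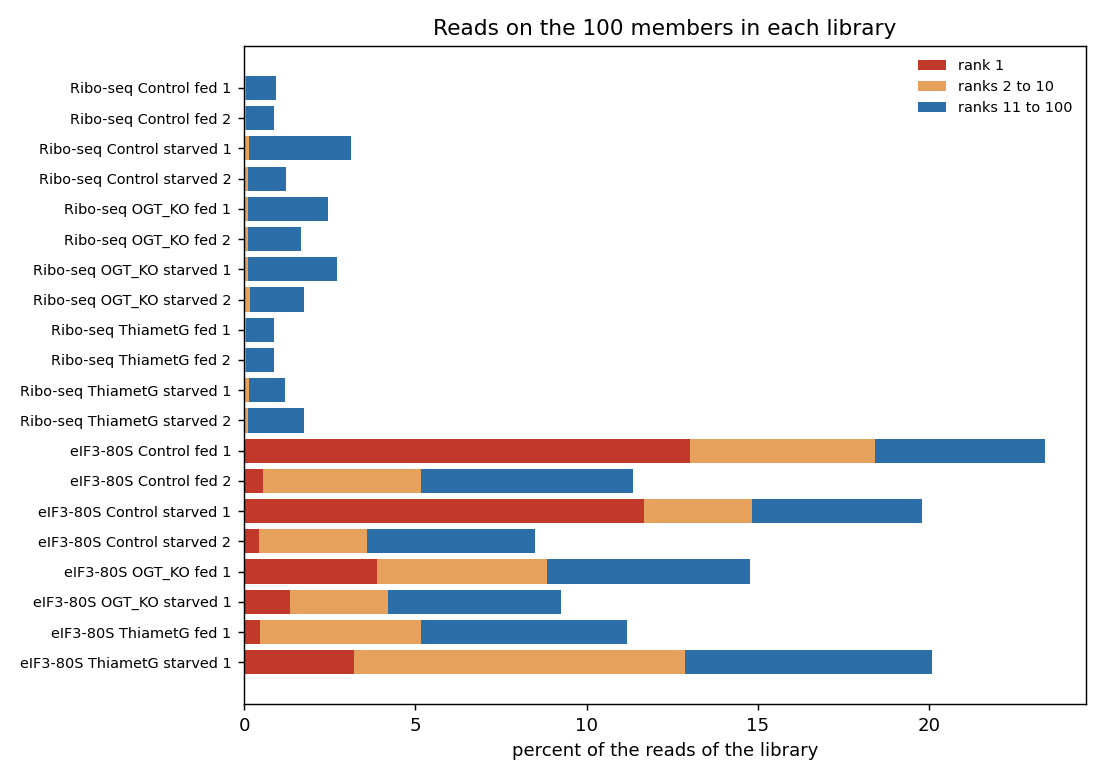
Percent of each library's reads on rank 1 (red), ranks 2 to 10 (orange) and ranks 11 to 100 (blue), for the 12 Ribo-seq and 8 eIF3-80S libraries. The blue segments are similar among eIF3-80S libraries, and the red segment is large in both libraries labelled Control replicate 1 (13.0% fed and 11.7% starved).

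The members had long coding regions. The ratio does not use length, but the listing from 5 reads does, since at a given RPKM a longer transcript has more reads. Their median coding length was 3229.5 nt, against 1248 nt in the other 1575 transcripts, and it ran from 870 nt (rank 59) to 20625 nt (rank 55). Lengths over 3000 nt were found in 52 of 100 members and 12.95% of the others, and lengths of at most 600 nt in 0 members and 19.2% of the others. The length was larger towards the top of the list, with medians of 4339.5 nt in ranks 1 to 10, 4378.5 nt in ranks 11 to 30 and 2469 nt in ranks 31 to 100. Without the demand of a listing outside fed Control, the 100 highest ratios had a median length of 3478.5 nt, against 1323 nt in the other 3739 transcripts listed in the 4 fed Control files, which have at least 5 reads in both eIF3-80S libraries of the rule.

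Length went with Ribo-seq level among the 1675 transcripts, each of which had at least 5 reads in every eIF3-80S library. They were split into 3 classes of equal size by their scaled Ribo-seq level outside fed Control. In the lowest class (0.945 to 70.6 RPKM), which held 78 of the members, the median length was 4119 nt in members and 2724 nt in others. In the middle class it was 1426.5 nt in 16 members and 1257 nt in 543 others. In the highest class it was 1954.5 nt in 6 members and 604.5 nt in 552 others. Members had the longer median in each class, and most of them came from the class in which the other transcripts were longest too.

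**Figure D4:**
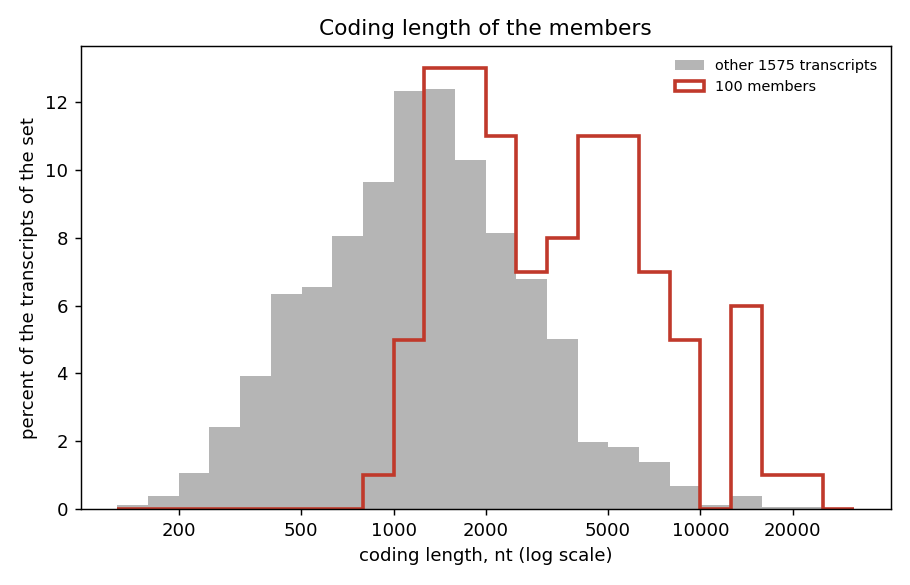
Distribution of coding length (log scale, nt) as percent of each set, for the 100 members (red line) and the other 1575 transcripts listed in every library (grey). No member is shorter than 870 nt, and 52 members are over 3000 nt.

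Starvation was examined next among eIF3-carrying ribosomes, with background and starvation as additive terms over the 6 libraries outside fed Control. The starvation effect comes from 1 fed and 1 starved library each of OGT_KO and ThiametG cells, and only 2 residual degrees of freedom remain. Limma called 0 of the 100 members, as it called 0 of 7725 transcripts tested, and 11 members had an unadjusted p under 0.05, near the background of 8.12% of the 1675. Leaving out any 1 of the 4 OGT_KO and ThiametG libraries left 1 residual degree of freedom and gave 1504 to 2160 calls over all transcripts, 9 to 15 over the 1675 and 0 members. Limma-voom on the recovered reads called 12 members higher and 9 lower of 99 tested, where the background was 2.94% of 1664 transcripts higher and 4.87% lower. With only the transcripts listed in every library tested (1664, with 99 members), limma-voom called 7 members higher and 2 lower, against 1.26% and 1.20% of the 1664. Calls in these libraries therefore depended on the model.

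Some members had separate values in fed and starved libraries. Rank 6, ENSMUST00000115460 with a coding length of 4803 nt, measured 6163 RPKM in fed OGT_KO and 5498 RPKM in fed ThiametG cells, and 925 and 894 RPKM in the starved libraries of the same backgrounds. Starved Control cells had 271 and 641 RPKM. Limma-voom gave a log2 change of -2.69 (SE 0.367, adjusted p = 0.000173), and limma -2.69 (SE 0.446, adjusted p = 0.501). Fed Control, which had chosen it, was at 2657 and 3618 RPKM. Its mean Ribo-seq level did not fall alongside, with starved over fed ratios of 1.29 in Control, 1.06 in OGT_KO and 3.46 in ThiametG cells. The Control libraries went opposite ways, from 39.9 to 156 RPKM in replicate 1 and from 39.8 to 29.5 RPKM in replicate 2.

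Rank 15, ENSMUST00000100507, measured 879.5 and 1805 RPKM in fed OGT_KO and ThiametG cells and 188 and 197 RPKM when these were starved. Starved Control cells had 111 and 234 RPKM, so no starved library reached a fed one. The limma-voom log2 change was -2.71 (SE 0.301, adjusted p = 4.05e-05). Rank 32 was at 1819 and 2419 RPKM fed and 521 and 658 RPKM starved (limma-voom log2 change -1.86, SE 0.425, adjusted p = 0.0127). Rank 18 measured 1032.5 and 684 RPKM fed and 242 and 362 RPKM starved (-1.55, SE 0.400, adjusted p = 0.028 by limma-voom), but its fed Control libraries, at 333 and 360 RPKM, overlapped the starved ones. The Ribo-seq starved over fed ratio was 1.58, 1.70 and 2.59 for rank 15 in Control, OGT_KO and ThiametG cells.

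In Ribo-seq the 12 members called higher by limma-voom had a scaled median of 9.04 RPKM, and the 9 called lower one of 146 RPKM. Rank 25 went from 76.5 to 339.5 RPKM in OGT_KO and from 32.1 to 294.5 RPKM in ThiametG cells (log2 change 2.70, SE 0.451, limma-voom adjusted p = 0.00106), and starved Control cells had 582 and 190 RPKM. Rank 71 was at 33.7 and 43.6 RPKM in the 2 fed libraries and at 3.97 and 3.72 times these levels after scaling when starved. Rank 30 went from 55.5 to 331 RPKM and from 58.2 to 270.0 RPKM, but its fed Control libraries were at 57.6 and 625 RPKM, so that fed replicates overlapped the starved ones. Rank 3, shown above, had a limma-voom log2 change of 1.32 (SE 0.308, adjusted p = 0.0141).

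The 4 starved eIF3-80S libraries and the 2 fed ones of OGT_KO and ThiametG cells did not overlap for 30 members. In 17, all 4 starved libraries lay below both fed ones, and in 13 all 4 lay above. The background was 14.3% of the 1675 transcripts lower and 13.1% higher, so neither count stands apart from it. With the fed Control libraries set beside them, 12 of the 17 and 6 of the 13 remained without overlap. Among the 17 the median coding length was 2202 nt and the median level in Ribo-seq 83.8 RPKM, and among the 13 these were 3297 nt and 8.88 RPKM. Among the other transcripts the corresponding lengths were 774 nt and 1650 nt, and the levels 499 and 89.2 RPKM. In both sets of transcripts, those lower in starvation were shorter and more heavily read than those higher.

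Rank 70 had the largest rise by limma-voom, and it rested on 1 library. It measured 81.9 and 81.3 RPKM in fed and starved OGT_KO cells, but 96.5 and 2541 RPKM in fed and starved ThiametG cells. Starved ThiametG cells, with a single eIF3-80S library, held the highest of the 6 values for 31 members and for 15.9% of the other transcripts. In 6 members, and 0.635% of the other transcripts, this library was at least 2-fold above each of the other 5. These were rank 19 (12.2-fold), rank 10 (7.43-fold), rank 70 (7.39-fold), rank 8 (4.54-fold), rank 23 (4.27-fold) and rank 37 (3.54-fold). Rank 10 measured 6950 RPKM there against 756 RPKM in fed ThiametG and 37.6 and 57.8 RPKM in fed and starved OGT_KO cells. Starved Control replicate 1, the library with the fewest reads, held 5 such members and 0.952% of the other transcripts. Without replicates of starved ThiametG cells, library and condition cannot be told apart here.

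**Figure D5:**
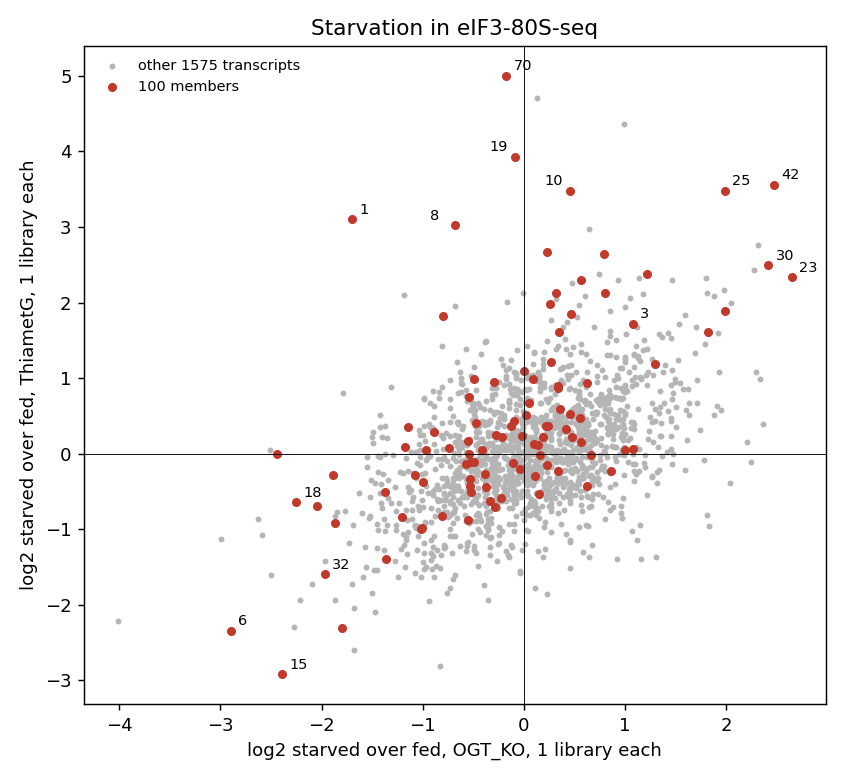
Log2 ratio of starved to fed in eIF3-80S-seq in OGT_KO cells (horizontal axis) and ThiametG cells (vertical axis), 1 library each, for the 100 members (red, some with their rank) and the other 1575 transcripts (grey). Ranks 6, 15, 18 and 32 are below 0 in both, and ranks 23, 25, 30 and 42 above 0 in both. Ranks 8, 10, 19 and 70 are high in ThiametG cells. Their starved to fed ratios in OGT_KO cells are 0.624, 1.37, 0.939 and 0.886 before the log.

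For starvation in Ribo-seq no transcript was called, member or not. In OGT_KO and ThiametG cells limma called 0 members and 0 of 10982 transcripts, and 3 members had an unadjusted p under 0.05, against 5.43% of the 1675. With the listing as a block limma also called 0, and 10 members, all higher, had an unadjusted p under 0.05, against 9.43% of the 1675. The members' median log2 difference of starved to fed was 0.35, with 78 of 100 above 0, and that of the 1675 was 0.06, with 930 above 0. Over libraries of 1 listing the medians were 0.34 (62 of 100 above 0) and 0.35 (78 of 100). In the other transcripts they were 0.00 (50.2% above 0) and -0.01 (49.2%). The members' median over both listings ran from 0.14 to 0.54 with 1 library left out. Limma-voom called 0 as well.

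The test of whether starvation altered the assay difference gave 0 members, where 0.414% of the 10631 transcripts were called (44), and 6 members had an unadjusted p under 0.05, against 1.07% of the 1675. The lowest values were for rank 6 (log2 -4.03, SE 1.02, limma adjusted p = 0.137) and rank 15 (-4.01, SE 1.10, limma adjusted p = 0.196). With the listing as a block 1 member was called lower, the only call among the 1675 (0.0597%). Over all members the median was -0.33, against 0.02 over the 1675, with -0.59 to -0.14 when 1 library was left out, and quantile normalization turned it to 0.03. No member's assay difference could thus be told apart between fed and starved cells by limma without the listing block.

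The backgrounds were compared in Ribo-seq, with OGT_KO and ThiametG cells averaged over feeding. Limma and limma-voom both called 0 members, and limma called 0 of 10982 transcripts. An unadjusted p under 0.05 was found for 16 members, all higher in OGT_KO cells, against 12.4% of the 1675 in either direction. The number was 5 without fed OGT_KO replicate 1, 24 without its replicate 2 and 8 without starved OGT_KO replicate 1 or fed ThiametG replicate 2. It was 10 without starved ThiametG replicate 1 and 33 with the listing as a block, where the background was 20.4% of the 1675. The median log2 difference was 0.65, with 74 of 100 higher in OGT_KO cells, and 0.12 over the 1675. It was 0.52 over the libraries listed from 1 read and 0.59 over those listed from 5, against 0.04 and -0.09 in the other transcripts. Scaled over all 20 libraries without a pseudocount, 72 of 100 members and 49.1% of the other transcripts were higher in OGT_KO cells. OGT_KO cells alone are labelled with 4-OHT and fresh medium, and ThiametG cells alone with Thiamet-G. Loss of Ogt and these treatments cannot be told apart in this comparison. The lowest p belonged to rank 88 (log2 2.62, SE 0.582, limma adjusted p = 0.544).

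Against starved Control, no member was called in either background. In starved OGT_KO cells the median log2 difference was 0.03, with 53 of 100 above 0 and 1 member at an unadjusted p under 0.05 (0.836% of the 1675). With 1 library left out, which leaves its group with 1 listing only, the median changed sign, and the listing difference enters. It was 0.70 (77 above 0) without starved Control replicate 1 and -0.59 (18 above 0) without its replicate 2. It was -0.28 without starved OGT_KO replicate 1 and 0.45 without its replicate 2. In starved ThiametG cells it was -0.33, with 29 of 100 above 0 and 1 member at that level (0.537% of the 1675). Without starved Control replicate 1 it was 0.27 (66 above 0), and without its replicate 2 it was -1.06 (22 above 0, 10 members at that level). It was 0.01 without starved ThiametG replicate 1 and -0.71 without its replicate 2. Scaled over all 20 libraries without a pseudocount, 62 of 100 members and 50.3% of the other transcripts were above 0 in starved OGT_KO cells. In starved ThiametG cells these were 37 of 100 and 52.3%. On this scale the members' medians in starved OGT_KO cells were 0.25 over libraries listed from 1 read and -0.05 over those listed from 5. In starved ThiametG cells they were -0.04 and -0.51. The other transcripts had 0.00 and -0.03 in OGT_KO, and 0.02 and 0.11 in ThiametG cells. Limma called 0 members and 0 of 10982 transcripts in both backgrounds, and limma-voom called 0 members. The starvation response of OGT_KO cells minus that of ThiametG cells, tested as an interaction, also gave 0 by limma and limma-voom, with 1 member at an unadjusted p under 0.05 (1.55% of the 1675).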

How the data were processed

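Per the submitters' processing notes, reads were handled with cutadapt and STAR on GRCm38. The counter, annotation and filters were not given in the sources used here. The authors deposited RPKM per transcript, and no gene names or sequences could be joined to the identifiers, so fixed gene lists and marker checks were left out. Whole reads, totals and coding lengths were recovered from the RPKM steps for 13278 of 15354 transcripts, including all 1675 listed in every file. The recovery took 3 as the common divisor of lengths. That 99.8% of lengths were multiples of 3 is therefore no independent check. Libraries were scaled by median ratios to geometric means, over the transcripts listed in every library compared. Medians over those transcripts therefore lie near no change by construction. Tests used limma 3.58.1 in R 4.3.3 (lmFit, eBayes with trend) on log2(RPKM + 1), which understates changes of low transcripts, keeping those whose mean reached 1 RPKM, unlisted values as 0, two-sided, Benjamini-Hochberg adjusted p under 0.05 over all tested. The 4 fed Control libraries were left out of every test because their levels chose the members. The other 16 entered the choice through the demand of a listing in each. Ratios by condition were scaled over all 20 libraries without a pseudocount, while the ratio of the rule used deposited values. Limma-voom used recovered reads with a mean of at least 10. Scripts were tested on simulated data. Named members were the 10 of highest ratio, called members of largest change, the edge of the choice and length extremes, with ranks 13, 38, 70, 71, 88 and those high in single libraries named after their values were seen. The members, lists and tests were chosen with earlier results of these data known. Group labels came from titles, and no 2 libraries were identical.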

Additional observations from a re-analysis of the deposited data

Results flagged for a closer look

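Rank 1 moved in opposite directions with starvation in the single eIF3-80S libraries of the modified backgrounds. Its starved over fed ratio, scaled between libraries, was 0.308 in OGT_KO cells and 8.57 in ThiametG cells. The difference was not tested, since each background had 1 fed and 1 starved library, and the Control replicates of this transcript differed by 28.4-fold when fed and 29.9-fold when starved.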

How the results depend on the processing

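The count of members higher in eIF3-80S-seq, 73 of 100, was between 63 and 94 under 9 of 10 alternatives of model, filter and scaling, and 48 by limma-voom on recovered reads, which gave 79 with the listing of the Ribo-seq libraries as a block. Choosing the members from the transcripts listed in the 4 fed Control files gave 51 calls (49 higher and 2 lower), kept 43 of the 100 members and gave a median length of 3478.5 nt. Leaving out 1 library at a time gave 60 to 78. Quantile normalization moved the median over the 1675 transcripts from -0.04 to 0.57 and that of the members from 1.86 to 2.86, and calls over all transcripts from 226 higher and 4943 lower to 1550 higher and 1111 lower. For starvation in eIF3-80S-seq, where limma called 0 members, the fit of the 1675 transcripts alone called 3 (0.478% of the 1675), quantile normalization 9 (1.67%), limma-voom 21 (7.81% of 1664) and limma-voom restricted to these 9 (2.46%). For the assay difference by starvation the listing block called 1 in place of 0. The remaining alternatives of these tests, and all alternatives of the Ribo-seq comparisons, gave 0 members, and leaving out single libraries gave 0 in each. The listing block could not be fitted to eIF3-80S-seq alone. The listing blocks, the restricted limma-voom fit and the choice from the fed Control files alone were added after seeing the data.

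Replicate numbers of the titles were not taken to pair the Ribo-seq groups. The deposited files of starved ThiametG cells are numbered opposite to the titles, and with those numbers the replicates coincide with the listing. Deviations from group means correlated at -0.47 to 0.59 and were over 0.1 in 9 of 15 pairs of groups (14 of 15 for the listing), and at 0.32 between fed and starved Control in eIF3-80S-seq, the only pair there. The replicate block called 63 members in the assay difference and 0 in each other comparison.

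With replicate 1 of fed Control alone 59 members remained among the 100, and with replicate 2 alone 73. Arithmetic means kept 93, and a minimum of 20 reads in both fed Control eIF3-80S libraries kept 79. The median length was 3955.5 nt for the 50 highest and 2419.5 nt for the 200 highest. Depth limits the eIF3-80S values, where the median member had 14 to 117.5 reads outside fed Control.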

Other observations

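Fed Control values enter the choice of the members and were therefore not tested, but they can be set beside the other backgrounds as values. In eIF3-80S-seq the members' median log2 ratio of starved to fed was -0.36 in Control cells (35 of 100 above 0), -0.09 in OGT_KO cells (46 of 100) and 0.19 in ThiametG cells (60 of 100), and those of the other transcripts were 0.03, 0.04 and 0.00. Of the other transcripts 52.3%, 53.0% and 50.0% were above 0. The fed Control libraries that chose the members for high values are the denominator in the Control ratio. In Ribo-seq the corresponding medians of the members were 0.49, 0.25 and 0.44, where the fed Control libraries chose members for low values.

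Between single eIF3-80S libraries of OGT_KO and ThiametG cells the members' median log2 ratio was 0.09 when fed and -0.25 when starved. Above 0 were 59 and 32 of 100 members, and 47.9% and 51.7% of the other transcripts. Rank 10 differed most when starved, with 57.8 RPKM in OGT_KO and 6950 RPKM in ThiametG cells. Rank 1 was higher in OGT_KO cells when fed (7889 against 922 RPKM) and higher in ThiametG cells when starved (6509 against 2725 RPKM). These values have no replicate check.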
